A study of Mus musculus with 28 samples.

Results

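The 8 co-stimulatory receptor genes described here are Cd28, Icos and Cd226 of the immunoglobulin superfamily and Cd27, Tnfrsf1b, Tnfrsf18, Tnfrsf9 and Tnfrsf4 of the tumour necrosis factor (TNF) receptor superfamily. They were chosen by name, and all 8 were found among the 21614 and 20603 gene names of the 2 bulk tables and the 27933 genes of the single-cell table. All 8 also passed the filter on low counts in both bulk tables. The cells were CD8+ T cells sorted out of MC38-OVA tumours, grown from a mouse colon carcinoma line that expresses the antigen ovalbumin, in C57BL/6 animals that were wild type. A first, subset experiment split the PD-1- fraction of these tumour-infiltrating lymphocytes (TILs) into naive-like (CD62LhiSlamf7-CX3CR1-, n = 6), memory-like (CD62L-Slamf7hiCX3CR1-, n = 5) and effector-like cells (CD62L-Slamf7hiCX3CR1+, n = 3). A second, treatment experiment compared mice given isotype control antibodies with mice given blocking antibodies against PD-1 and Tim-3. On day 12, Tim-3-PD-1- cells (double negative, DN) and Tim-3+PD-1+ cells (double positive, DP) were collected from both, which gave 4 groups of 3 bulk libraries, and DN cells of each treatment also gave 1 single-cell library. The labels do not say which libraries came from separate animals, so a p-value here measures the spread between libraries, which may be technical. The names of effector-like libraries 1 and 2 carry several numbers each, so they may be pools, and the naive-like names carry another date than the memory-like and effector-like names, so that date and subset cannot be told apart.

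Co-stimulatory receptors add to the signal that a T cell takes from its antigen receptor. CD28 is carried by resting T cells and binds CD80 and CD86 on antigen-presenting cells, whereas its relative ICOS appears after activation and binds ICOS ligand. CD226 (DNAM-1) is an activating receptor that shares its ligand PVR with the inhibitory receptor TIGIT. Of the TNF receptors, CD27 is carried by naive T cells and binds CD70, and TNFR2 (Tnfrsf1b) binds TNF. GITR (Tnfrsf18), 4-1BB (Tnfrsf9) and OX40 (Tnfrsf4) bind GITRL, 4-1BBL and OX40L, are raised by antigen receptor signals, and are targets of agonist antibodies tested against tumours. OX40 and GITR are also abundant on regulatory T cells. These TNF receptors bind TRAF adaptors and act through NF-kB.

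The bulk libraries held 5027112 to 7978200 counts in the subset and 8005818 to 13579262 in the treatment experiment. The single-cell libraries kept 2950 isotype and 2502 blockade cells with medians of 3652 and 3840 unique molecules (UMIs). Transcripts of the sort went with the labels for Pdcd1, at 25.4 to 136 CPM (counts scaled to a common library total) in DN and 531 to 628 in DP libraries, and for Havcr2 (Tim-3), at 2.48 to 36.4 against 245 to 391. Cd8a was at 393 CPM or more in every bulk library. Haemoglobin and Alas2 transcripts summed to 1403 to 5310 CPM in the 6 isotype libraries and to 0.253 to 118 CPM in the 6 blockade libraries of the treatment experiment. Plasmacytoid dendritic cell markers summed to 1101 to 2539 CPM in DN and 345 to 439 CPM in DP libraries, with 5 to 8 of the 8 markers counted in each library. Myeloid markers summed to 222 to 403 CPM in DN and 509 to 843 in DP libraries, and cell cycle genes to 220 to 651 and 1688 to 1840 CPM. Memory-like replicate 2 and naive-like replicates 4 and 6 stood apart from their groups, and results were also computed without them.

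Tnfrsf9, Tnfrsf4, Tnfrsf18 and Tnfrsf1b were called higher in DP than in DN cells after isotype and after blockade, and all 4 lie on chromosome 4 of the mouse genome (RefSeq, build GRCm38.p6). Tnfrsf4 (156013595 to 156016613) and Tnfrsf18 (156026322 to 156028894) are neighbours with 9708 bases between them, Tnfrsf9 lies at 150920155 to 150946104, and Tnfrsf1b at 145212368 to 145246870. Cd28 (chromosome 1, 60746388 to 60773359) and Icos (60960773 to 61000322) are also neighbours, with 187413 bases between them. Cd27 lies on chromosome 6 at 125232620 to 125237136. Promoter windows of 250 bases before a RefSeq start were listed for 5 of the 8 genes. They are shown for the first 3 of these genes, whose fold differences between DP and DN cells were larger than that of Tnfrsf1b, 5′ to 3′ on the plus strand, as far as the bases lie outside annotated exons. Window 1 of Tnfrsf9 is chr4:150919905-150920154, window 2 is chr4:150927749-150927917, the Tnfrsf4 window is chr4:156013445-156013594 and the Tnfrsf18 window is chr4:156026072-156026163.
Tnfrsf9 window 1: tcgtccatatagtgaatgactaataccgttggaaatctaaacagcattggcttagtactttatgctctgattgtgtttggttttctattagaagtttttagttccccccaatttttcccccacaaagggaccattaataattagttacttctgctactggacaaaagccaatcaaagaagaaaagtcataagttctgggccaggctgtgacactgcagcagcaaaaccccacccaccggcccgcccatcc
Tnfrsf9 window 2: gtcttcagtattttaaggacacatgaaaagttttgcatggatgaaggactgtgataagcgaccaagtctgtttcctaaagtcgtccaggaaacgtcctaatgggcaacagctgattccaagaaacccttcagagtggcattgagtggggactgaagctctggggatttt
Tnfrsf4: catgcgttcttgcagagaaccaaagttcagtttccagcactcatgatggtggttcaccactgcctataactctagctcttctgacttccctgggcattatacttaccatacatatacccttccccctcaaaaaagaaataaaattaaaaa
Tnfrsf18: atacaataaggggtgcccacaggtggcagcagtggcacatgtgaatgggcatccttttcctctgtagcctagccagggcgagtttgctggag

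The windows were searched on both strands for TGANTCA, the letters of an AP-1 site, and for the NF-kB consensus. AP-1 letters were found in 6.75% and NF-kB letters in 7.25% of 32851 windows of this length in the genome, and both in 0.356%. Among the members, matches lay only before the second start of Tnfrsf9 (150927999), which held both. The NF-kB match was 43 bases before that start and overlapped a second match 1 base on, and the AP-1 match was 15 bases before it. Capitals mark the matching letters in the pair of short sequences, at chr4:150927951-150927971 and chr4:150927979-150927995, which GENCODE counts as exon. A match is a description of the letters and not a site of binding, and the windows of Tnfrsf4, Tnfrsf18, Tnfrsf1b and Cd27 do not hold these letters.
Tnfrsf9 NF-kB match: cagctGGGGATTTCCCaggag
Tnfrsf9 AP-1 match: tcagtTGAGTCAcaggt

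**Figure D1:**
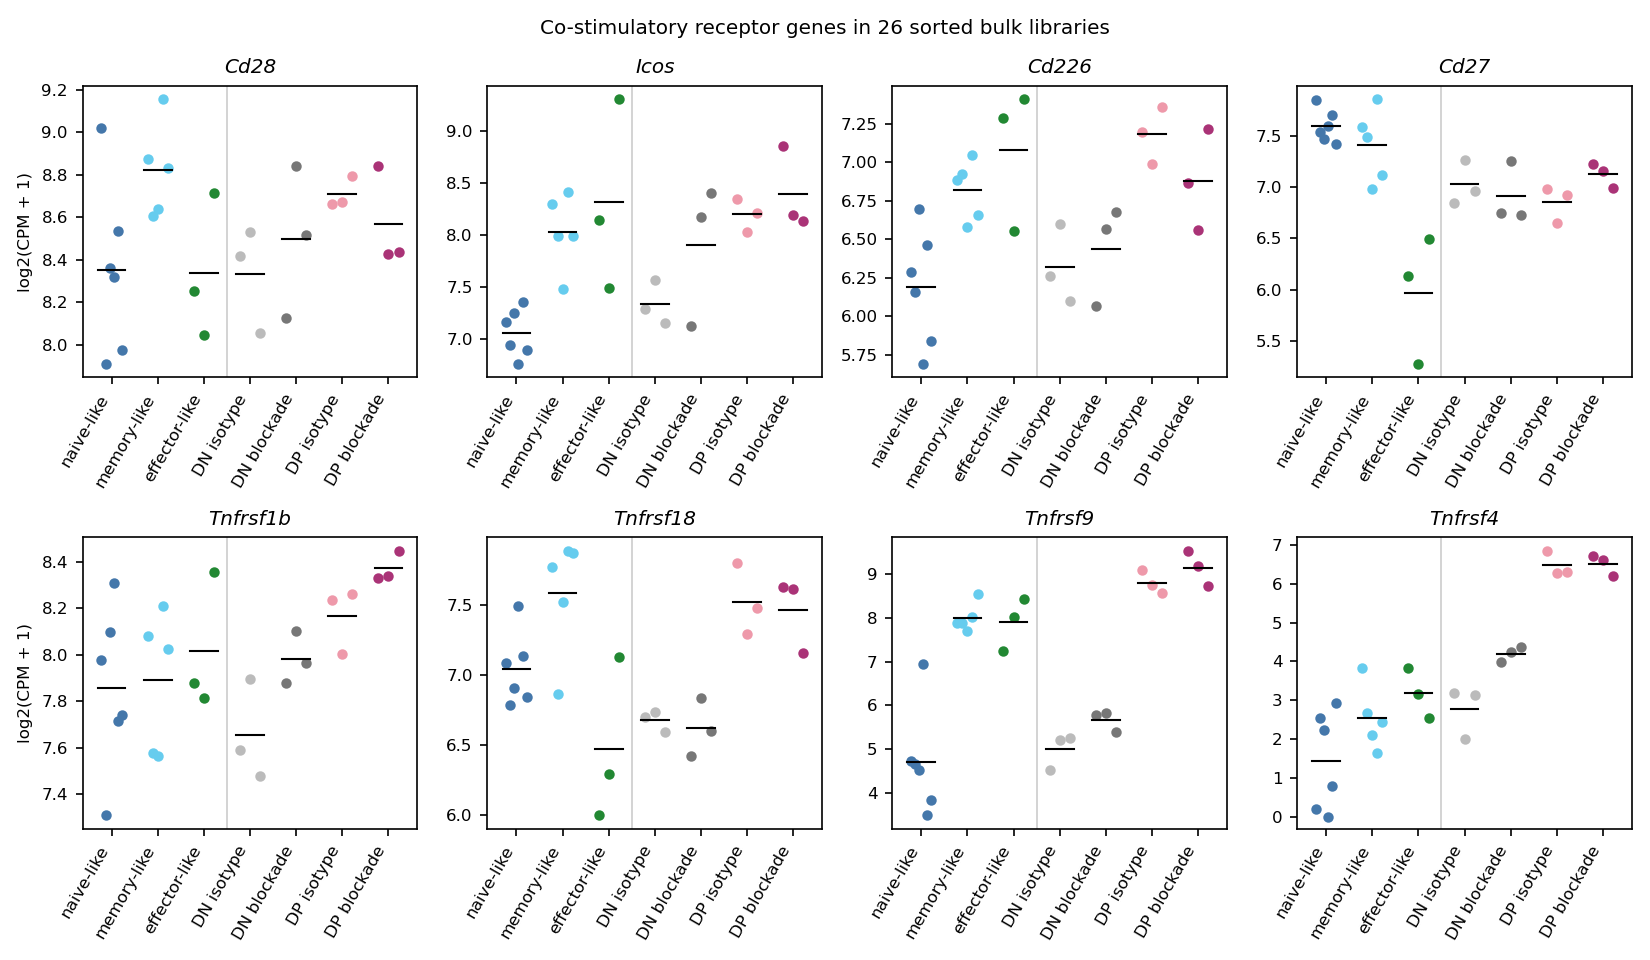
Levels of the 8 genes in the 26 bulk libraries, as log2(CPM + 1) on the y axis with a separate range for each gene. Each point is 1 library, the bar is the group mean, and the grey line separates the subset from the treatment experiment. For Tnfrsf9 and Tnfrsf4 every DP point lies above every DN point, and for Cd27 the 3 effector-like points lie below all memory-like and naive-like points.

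To compare levels between genes, the deposited length-scaled signal was used, since it divides a gene's counts by a factor close to its transcript length. On this scale Tnfrsf18 came first in DN cells after isotype (101 ± 3.96, SD, n = 3) and did not overlap the next gene, Cd27 (82.4 ± 11.4). Cd28 followed at 74.6 ± 11.2, overlapping Cd27, and then came Icos (49.5 ± 6.44), Tnfrsf1b (40.8 ± 5.55) and Cd226 (31.8 ± 5.23), each overlapping the next. Tnfrsf9 (15.3 ± 4.08) and Tnfrsf4 (5.47 ± 2.52) came last, and neither overlapped its neighbours. DP cells after isotype had a different order of levels. Tnfrsf9 (219 ± 41.0) and Tnfrsf18 (185 ± 33.8) overlapped each other and stood above the other 6 genes, whose means lay between 58.5 and 96.8. Tnfrsf4 was above Cd27 there, at 77.3 ± 18.3, and Cd226 was last. Tnfrsf4 was the lowest gene in both DN groups and in all 3 subsets, at 2.38 to 14.9, and Tnfrsf9 was next to last in naive-like cells (18.045 ± 20.8) but first in effector-like cells (127 ± 48.0), where it overlapped Icos.

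**Figure D2:**
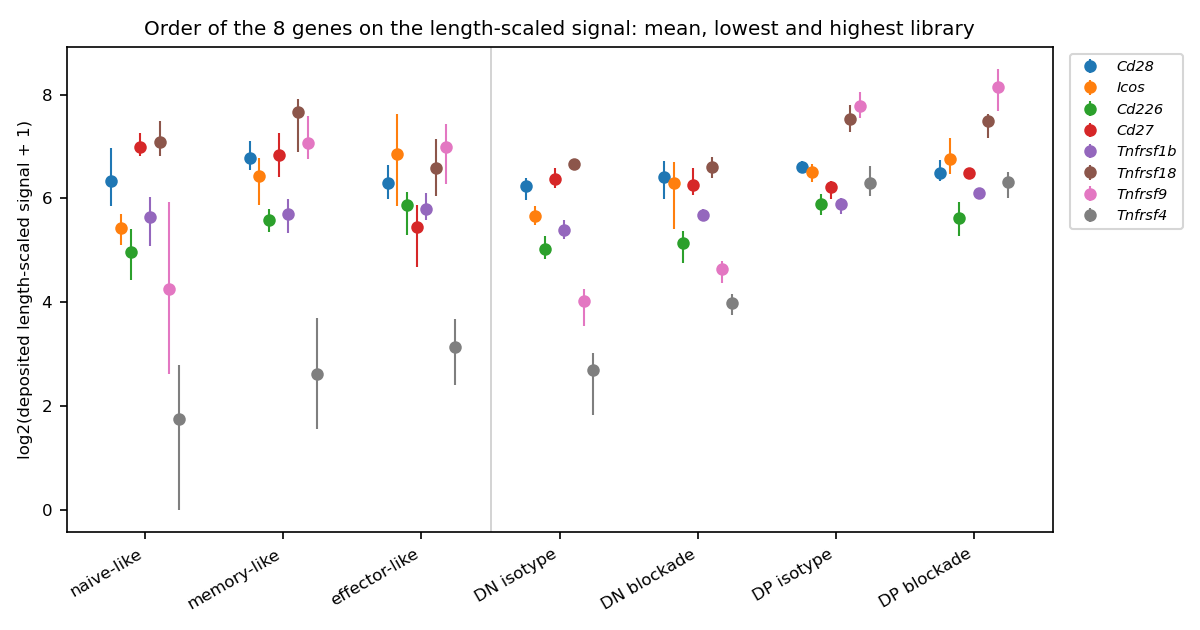
Order of the 8 genes in each group on the deposited length-scaled signal, as log2(signal + 1) on the y axis. Points are group means and vertical lines run from the lowest to the highest library (n = 6, 5 and 3 for naive-like, memory-like and effector-like, 3 in each treatment group). Tnfrsf9 moves from below Cd226 in DN groups to the first place in DP groups, and Tnfrsf4 from the last place to one above Tnfrsf1b.

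The first comparison asked how Tim-3+PD-1+ cells, often called terminally differentiated or exhausted, differed from Tim-3-PD-1- cells. After isotype, 6 of the 8 genes were called higher in DP cells by edgeR's quasi-likelihood test (Benjamini-Hochberg adjusted p under 0.05 over all 12710 genes tested), against 15% of all genes called higher and 29.9% called in either direction. None was called lower. The library names of DN and DP libraries of the same treatment share numbers, so that a pair may come from the same mouse, which the labels do not state. With these numbers as a replicate block, 7 genes were called after isotype, the 6 and Cd28 (edgeR adjusted p = 0.0294), and 4 after blockade. The share of all genes called with that block is not given here. These counts can therefore not be set against the 15% and 29.9%. In bulk libraries, a smaller share of cells that carry a transcript and less RNA per cell cannot be told apart.

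Tnfrsf9, the receptor 4-1BB, was at 21.9, 36.3 and 37.2 CPM in the 3 DN isotype libraries and at 548, 426 and 379 CPM in the 3 DP isotype libraries. The lowest DP library was thus far above the highest DN library. The difference was 3.82 ± 0.26 on the log2 scale (SE, 95% interval 3.26 to 4.39, edgeR adjusted p = 1.09e-06), a 14.2-fold higher level. After blockade, Tnfrsf9 was at 54.2, 55.8 and 40.7 CPM in DN and 739, 579 and 420 CPM in DP libraries, again without overlap. That difference was 3.53 ± 0.25 (adjusted p = 3.38e-06), or 11.5-fold.

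Tnfrsf4, the receptor OX40, was at 8.16, 3.04 and 7.74 CPM in DN isotype and at 114, 76.3 and 77.5 CPM in DP isotype libraries. Every DP library was far above every DN library, and the difference was 3.82 ± 0.30 (95% interval 3.16 to 4.48, edgeR adjusted p = 3.03e-06), or 14.1-fold. After blockade the gene was at 14.9, 17.97 and 19.7 CPM in DN and at 103, 96.7 and 72.2 CPM in DP libraries. The groups did not overlap, with a difference of 2.37 ± 0.28 (adjusted p = 7.64e-05), or 5.18-fold. Foxp3, the defining factor of regulatory T cells, was at 4.73 to 30.8 CPM in DP and 0 to 3.29 CPM in DN libraries, and the 8 markers of CD4 or regulatory T cells summed to 404 to 609 CPM in DP and 174 to 299 CPM in DN libraries. Of these 8, 6 were called higher and 1 lower in DP cells after isotype. Cd4 went the other way, at 1.11 to 8.77 CPM in DP and 52.6 to 141 CPM in DN libraries. The part of such cells in the Tnfrsf4 and Tnfrsf9 levels was not tested.

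Tnfrsf18, which encodes GITR, was at 103, 106 and 95.5 CPM in DN isotype and 222, 156 and 177 CPM in DP isotype libraries. The groups did not overlap, and the difference was 0.87 ± 0.16 (edgeR adjusted p = 0.00127). After blockade it was at 84.7, 113 and 96.1 CPM in DN and 196, 195 and 142 CPM in DP libraries, and the difference was 0.86 ± 0.16 (adjusted p = 0.0017). Tnfrsf18 thus rose by less than its neighbour Tnfrsf4 in both conditions.

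Tnfrsf1b, the receptor TNFR2, was at 192, 237 and 177 CPM in DN isotype and 300, 255 and 306 CPM in DP isotype libraries. The difference of 0.51 ± 0.12 passed the test (edgeR adjusted p = 0.00553), as did that of 0.39 ± 0.12 after blockade (adjusted p = 0.0254), where DN libraries held 234, 274 and 249 CPM and DP libraries 321, 323 and 348 CPM. Neither pair of groups overlapped. The call after blockade was lost when DN blockade replicate 1 or 3 or DP blockade replicate 2 or 3 was left out. Cd27, which marks naive and memory cells, was at 114, 153 and 124 CPM in DN isotype and 126, 99.6 and 120 CPM in DP isotype libraries, which overlapped. Its difference was -0.18 ± 0.16 (95% interval -0.52 to 0.16, adjusted p = 0.429), and 0.20 ± 0.16 after blockade (adjusted p = 0.367).

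Among the immunoglobulin superfamily genes, Cd226 was at 75.8, 96.0 and 67.6 CPM in DN isotype and 146, 126 and 164 CPM in DP isotype libraries. The groups did not overlap, and the difference was 0.87 ± 0.20 (edgeR adjusted p = 0.00552). After blockade, Cd226 was at 65.9, 93.9 and 101 CPM in DN and 116, 93.4 and 148 CPM in DP libraries, with a difference of 0.45 ± 0.20 that did not pass the test (adjusted p = 0.111) and with 1 DP library inside the DN range. Icos was at 156, 189 and 142 CPM in DN isotype and 326, 261 and 297 CPM in DP isotype libraries. These did not overlap, and the difference was 0.86 ± 0.28 (adjusted p = 0.0333). This call was lost when DN isotype replicate 1 or 3 or DP isotype replicate 1 or 3 was left out. After blockade, DN libraries held 139, 288 and 338 CPM of Icos and DP libraries 462, 292 and 281 CPM, which overlapped (difference 0.44 ± 0.27, adjusted p = 0.264). Cd28 was at 341, 368 and 265 CPM in DN and 404, 407 and 442 CPM in DP cells after isotype, without overlap but short of the threshold (0.36 ± 0.18, adjusted p = 0.144), and differed by 0.06 ± 0.18 after blockade (adjusted p = 0.842).

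After blockade, 4 of the 8 genes (Tnfrsf9, Tnfrsf4, Tnfrsf18 and Tnfrsf1b) were called higher in DP cells, against 14.4% of all genes called higher and 27% in either direction. Whether the DP to DN difference changed with blockade is the same test as whether the blockade effect differed between DP and DN cells, and no member passed it (0% of all genes were called). At an unadjusted p under 0.05 it held 1 member, Tnfrsf4 (-1.44 ± 0.39, edgeR adjusted p = 0.309), and 1070 of all genes. DESeq2 called Tnfrsf4 (adjusted p = 0.0241), and the number of all genes it called in this test is not given here.

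**Figure D3:**
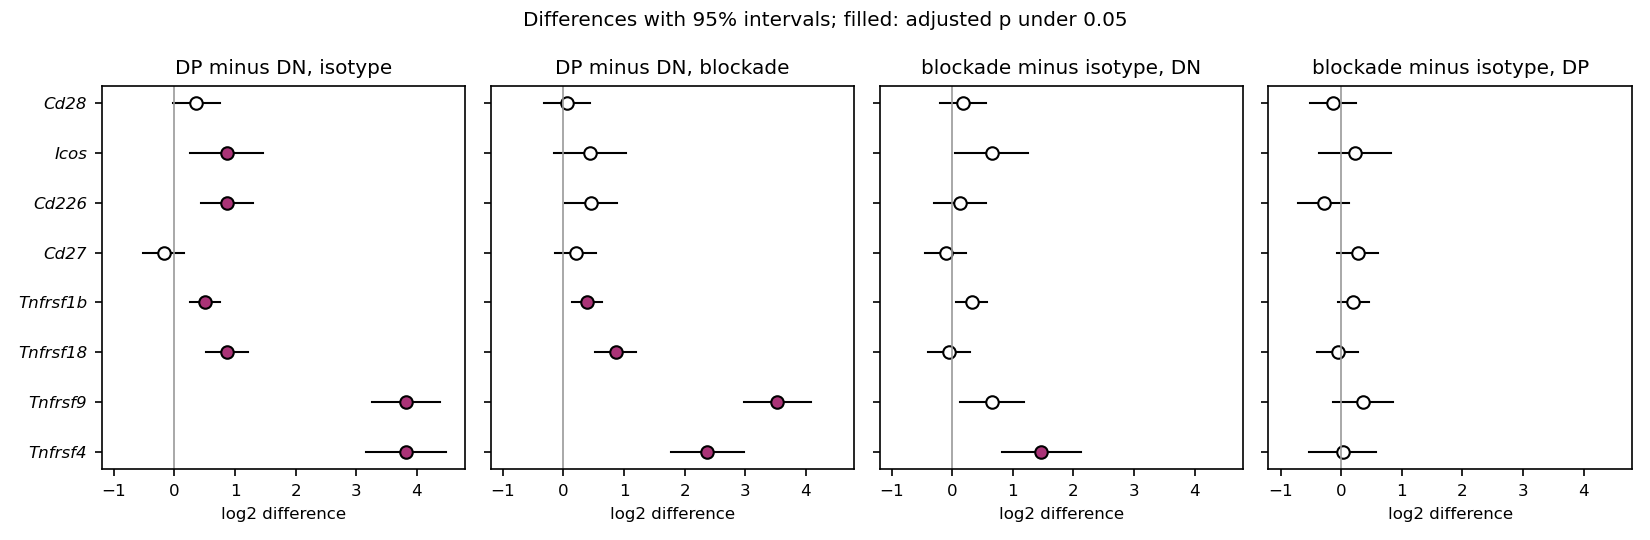
Log2 differences of the 8 genes in the 4 comparisons of the treatment experiment, with 95% intervals from edgeR (n = 3 libraries in each group). Filled points passed the adjusted threshold of 0.05. Tnfrsf9 and Tnfrsf4 differ by 2.37 to 3.82 between DP and DN cells, and the only filled point for blockade is Tnfrsf4 in DN cells.

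The next comparison asked what blockade of PD-1 and Tim-3 changed within each sorted population. It shares its libraries with the comparison of DP and DN cells. In DN cells 1 of the 8 genes was called, against 1.12% of all genes in either direction and 0.519% called higher. It was Tnfrsf4, with 14.9, 17.97 and 19.7 CPM after blockade and 8.16, 3.04 and 7.74 CPM after isotype. All 3 blockade libraries were above all 3 isotype libraries, at 17.5 ± 2.45 against 6.31 ± 2.84 CPM (SD, n = 3), and the difference was 1.47 ± 0.30 (95% interval 0.82 to 2.12, edgeR adjusted p = 0.0415), or 2.77-fold. With title numbers as a replicate block, the edgeR adjusted p was 0.0567 fitted to all groups and 0.0992 fitted to DN libraries. The labels do not state that these numbers mark pairs, and DN libraries matched by title carry unlike numbers in their library names. The call was also lost in a fit to the DN groups without the block (adjusted p = 0.212) and when any of the 6 libraries except DN isotype replicate 3 was left out.

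Other markers differed between these DN groups. Haemoglobin and Alas2 transcripts summed to 2708 to 5310 CPM after isotype and 0.253 to 118 CPM after blockade, and 5 of 5 measured genes of that list were called lower. The 9 tumour and stroma markers summed to 541, 106 and 634 CPM after isotype and to 1462, 355 and 985 CPM after blockade, which overlapped, and 0 of 7 measured genes were called. Of 12 myeloid markers 2 were called higher, Lyz2 (2.63 ± 1.02 against 49.4 ± 37.5 CPM) and Fcgr1, and the 12 summed to 222 to 268 CPM after isotype and 262 to 403 CPM after blockade. Of 7 checkpoint genes 3 were called higher, among them Havcr2 (3.91 ± 2.10 against 25.4 ± 9.76 CPM) and Pdcd1 (33.2 ± 7.53 against 107 ± 42.3 CPM). Plasmacytoid markers summed to 1674 to 2539 CPM after isotype and 1101 to 1621 CPM after blockade, with 0 of 8 called. In the DN single cells, cluster 10, led by Crabp1, Cald1 and Sparc, held 35.9% of all Tnfrsf4 UMIs, as described with the cells. The part of any of these in the bulk Tnfrsf4 difference was not tested.

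Among the other members in DN cells, Tnfrsf9 was at 54.2, 55.8 and 40.7 CPM after blockade and 21.9, 36.3 and 37.2 CPM after isotype. The groups did not overlap, but the difference of 0.66 ± 0.24 did not pass the test (edgeR adjusted p = 0.215). Icos held 139, 288 and 338 CPM after blockade and 156, 189 and 142 CPM after isotype, with 1 blockade library below the isotype range (0.65 ± 0.28, adjusted p = 0.279). Tnfrsf1b, at 252 ± 20.2 against 202 ± 31.3 CPM, differed by 0.32 ± 0.12 (adjusted p = 0.209) with overlap. For Tnfrsf18 the difference was -0.05 ± 0.16 (95% interval -0.39 to 0.29, adjusted p = 0.908). Cd28 (0.18 ± 0.18), Cd226 (0.12 ± 0.20) and Cd27 (-0.11 ± 0.16) had adjusted p of 0.671 to 0.803.

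In DP cells no member was called after blockade, against 0.0629% of all genes (0.00787% higher and 0.0551% lower). By edgeR, 0 members and 909 genes had an unadjusted p under 0.05, and DESeq2 called 0 members and 63 genes. Cd27 held 149, 142 and 126 CPM after blockade and 126, 99.6 and 120 CPM after isotype, a difference of 0.27 ± 0.16 without overlap (adjusted p = 0.781). Tnfrsf1b, at 331 ± 15.3 against 287 ± 27.7 CPM, also did not overlap (0.20 ± 0.12, adjusted p = 0.779). Tnfrsf9 went from 451 ± 87.0 to 579 ± 160 CPM with overlap (0.36 ± 0.23, 95% interval -0.13 to 0.85, adjusted p = 0.82). For Tnfrsf4 the means were 89.2 ± 21.4 and 90.8 ± 16.4 CPM (0.03 ± 0.25, interval -0.53 to 0.58, adjusted p = 0.997). Blood transcripts separated these groups too, at 1403 to 3286 CPM after isotype and 0.47 to 14.1 CPM after blockade.

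**Figure D4:**
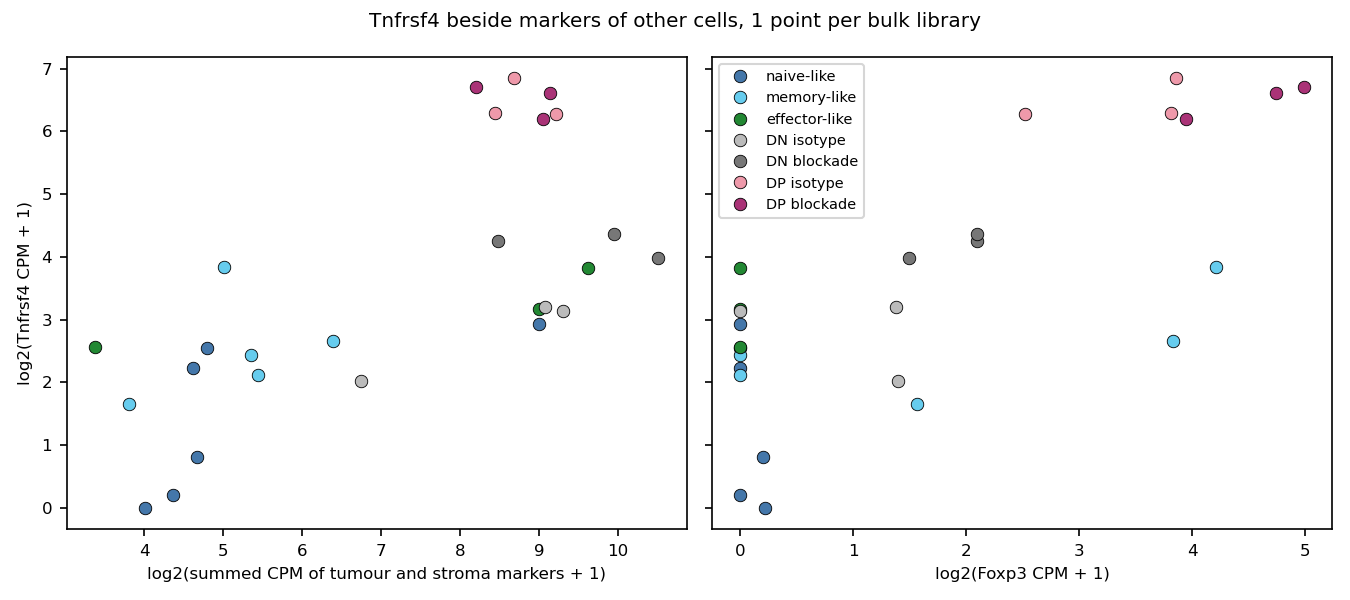
Tnfrsf4 level (y axis, log2(CPM + 1)) in the 26 bulk libraries against the summed level of 9 tumour and stroma markers (left, log2(summed CPM + 1)) and against Foxp3 (right, log2(CPM + 1)). Each point is 1 library, coloured by group. The 6 DP libraries lie highest in Tnfrsf4, at 72.2 to 114 CPM, with tumour and stroma markers inside the range of the DN libraries and Foxp3 above all DN libraries.

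In the subset experiment the question was how the 3 kinds of PD-1- CD8+ TILs differed. Tnfrsf9 separated naive-like from the other cells most widely among the 8 genes, and Cd27 set effector-like cells apart. In effector-like against naive-like cells 4 of 8 genes were called (6.42% of all genes), of which 3 were higher (2.62%) and Cd27 lower (3.79%). Between memory-like and naive-like cells 2 of 8 were called, both higher (5.51% of all genes, 2.78% higher and 2.73% lower). In effector-like against memory-like cells 1 of 8 was called, lower (1.91% of all genes, 0.484% higher and 1.43% lower). These comparisons share libraries. Other markers differed too between memory-like and naive-like cells. Of 8 genes each, 5 cell cycle, 4 CD4 or regulatory T cell and 3 plasmacytoid genes were called higher in memory-like cells and 0 lower. Of 12 myeloid markers, 4 were called lower and 0 higher. Plasmacytoid markers summed to 471 to 1687 CPM in memory-like and 176 to 588 CPM in naive-like libraries. The part of these in the member differences was not tested.

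Tnfrsf9 was at 10.2 to 122 CPM in the 6 naive-like libraries, with a median of 23.1. It was at 233, 234, 208, 259 and 375 CPM in the memory-like and 151, 256 and 346 CPM in the effector-like libraries. Both groups lay above every naive-like library, including naive-like replicate 4, which held 122 CPM where the next highest held 25.5. The difference from naive-like was 2.86 ± 0.52 in memory-like (edgeR adjusted p = 0.00538) and 2.80 ± 0.57 in effector-like cells (adjusted p = 0.00641), and -0.06 ± 0.60 between effector-like and memory-like cells (95% interval -1.34 to 1.22, adjusted p = 0.99). Without naive-like replicate 4 the differences from naive-like cells were 3.79 and 3.72.

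Cd27 was at 170 to 230 CPM in naive-like libraries, with a median of 189. Memory-like libraries held 191, 179, 125, 231 and 137 CPM and effector-like libraries 69.1, 37.8 and 89.0 CPM. The effector-like libraries were thus below all 11 others. Against memory-like cells the log2 difference of Cd27 was -1.40 ± 0.25 (edgeR adjusted p = 0.00717), and against naive-like cells it was -1.57 ± 0.25 (adjusted p = 0.000849). The call against memory-like cells was lost with title numbers as a replicate block (edgeR adjusted p = 0.0518) and held in 14 of 15 alternatives. The memory-like and naive-like groups overlapped (-0.17 ± 0.20, adjusted p = 0.714).

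Icos was at 108 to 163 CPM in naive-like libraries, with a median of 133. It was at 314, 253, 178, 341 and 253 CPM in memory-like and at 283, 180 and 633 CPM in effector-like libraries. Neither group overlapped naive-like cells, and effector-like replicate 3 stood at more than double the next effector-like library. The difference from naive-like was 1.44 ± 0.29 in effector-like (edgeR adjusted p = 0.00565) and 0.99 ± 0.26 in memory-like cells (adjusted p = 0.0337). Without effector-like replicate 3 the former was 0.79 (adjusted p = 0.0684). The latter call was lost without memory-like replicate 1, 4 or 5 or naive-like replicate 2 or 4, and without the 3 libraries that stood apart (adjusted p = 0.097).

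Cd226 was at 50.6 to 103 CPM in naive-like libraries (median 73.7), at 117, 121, 94.8, 131 and 99.8 CPM in memory-like and at 155, 92.8 and 169 CPM in effector-like libraries. The memory-like range lay inside the effector-like range, and both overlapped the naive-like range. The difference of effector-like from naive-like cells was 0.91 ± 0.22 (edgeR adjusted p = 0.02). That call was lost without effector-like replicate 1 (adjusted p = 0.106) or 3 (0.115), and in a fit to those groups alone (0.0587). Memory-like and naive-like cells differed by 0.61 ± 0.19 (adjusted p = 0.084).

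Tnfrsf18 was at 110 to 179 CPM in naive-like libraries (median 127), at 218, 116, 183, 236 and 233 CPM in memory-like and at 63.0, 77.7 and 139 CPM in effector-like libraries. Memory-like replicate 2 fell within the range of both other groups. Effector-like cells were 1.08 ± 0.27 lower than memory-like cells on the log2 scale, a difference that missed the threshold (edgeR adjusted p = 0.0602) and passed it without memory-like replicate 2 (adjusted p = 0.0184) or effector-like replicate 3 (0.0137). The difference between memory-like and naive-like cells was 0.57 ± 0.22 (adjusted p = 0.148), and 0.0366 was the adjusted p without the 3 libraries that stood apart.

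Cd28, Tnfrsf1b and Tnfrsf4 did not pass the test in any subset comparison. Cd28 was at 239 to 518 CPM in naive-like libraries (median 323), at 468, 388, 398, 569 and 454 CPM in memory-like and 304, 263 and 419 CPM in effector-like libraries, all overlapping. Its difference between memory-like and naive-like cells was 0.43 ± 0.19 (edgeR adjusted p = 0.21), and the adjusted p was 0.0422 without naive-like replicate 1. Tnfrsf1b means lay between 237 ± 55.5 (n = 6) and 262 ± 56.9 CPM (n = 3). Tnfrsf4 was low throughout, at 0 to 6.63 CPM in naive-like libraries (median 2.23), where a count of 0 in replicate 4 allows up to 0.49 CPM. It was at 13.2, 5.33, 3.34, 2.15 and 4.42 CPM in memory-like and 13.1, 8.03 and 4.88 CPM in effector-like libraries, with overlap. Memory-like replicate 1, the highest of its group, also had the highest Foxp3 of the subset experiment (17.6 CPM), and effector-like replicates 1 and 2 held 786 and 514 CPM of tumour and stroma markers against 9.37 in replicate 3. The part of these in Tnfrsf4 was not tested.

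Single DN cells showed which cells held the transcripts. No file states which barcode suffix belongs to which library. Suffix 1 was taken as isotype and 2 as blockade from the sample numbers in the labels, and an exchange would reverse every difference between the single-cell libraries. With 1 library in each condition there is no test, and the intervals cover counting error only. The cells were clustered without the 8 genes, and 3 of 13 clusters, in which under 50% of cells had a UMI of Cd3e, were set apart from the T cell clusters (138 of 5452 cells). No doublet caller was run, and 7 barcodes occurred in both libraries. Cd28 was found in 65.5% of isotype and 71.0% of blockade cells and Cd27 in 50.1% and 49.5%. Tnfrsf18 was found in 35.4% and 55.3%, Icos in 18.6% and 40.1%, Cd226 in 13.2% and 18.9%, Tnfrsf9 in 7.90% and 18.2%, Tnfrsf1b in 7.39% and 14.5%, and Tnfrsf4 in 1.63% and 3.12%. After each cell was thinned to 1500 UMIs, the shares were 41.9% and 43.2% for Cd28, 26.4% and 24.7% for Cd27, 19.3% and 29.8% for Tnfrsf18, 8.88% and 21.1% for Icos, 5.22% and 8.23% for Cd226, 3.90% and 8.99% for Tnfrsf9, 3.12% and 6.04% for Tnfrsf1b and 0.881% and 1.20% for Tnfrsf4. For all genes but Cd27, the blockade library held the larger share of these cells. Among T cell clusters alone, the thinned shares of Tnfrsf4 were 0.827% and 0.871%, so that its gap over all cells was not seen there.

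Summed over the T cell clusters, Icos was at 64.7 CPM in the isotype and 170 CPM in the blockade library, a log2 ratio of 1.39 (95% interval 1.27 to 1.52). Tnfrsf9 was at 43.1 and 113 CPM (1.39, interval 1.24 to 1.55), Tnfrsf4 at 6.51 and 17.1 CPM (74 and 177 UMIs, 1.40, interval 0.997 to 1.81) and Tnfrsf1b at 19.7 and 37.3 CPM (0.92, interval 0.68 to 1.16). The ratio was 0.83 for Tnfrsf18 (147 and 260 CPM), 0.50 for Cd226 (39.3 and 55.8 CPM) and 0.20 for Cd28 (401 and 461 CPM). For Cd27 it was -0.13 (206 and 189 CPM), the only one below 0. The Tnfrsf4 ratio rested on cluster 9, described with the clusters. Without that cluster the other T cell clusters held 63 UMIs of Tnfrsf4 in each library, at 5.93 and 6.70 CPM, and the ratio was 0.18 (interval -0.35 to 0.70). Tnfrsf18 thus differed between the single-cell libraries while its bulk difference in DN cells was -0.05, with an interval of -0.39 to 0.29. These assays were made on different cells with different protocols, and their difference was not tested. Pdcd1 was found in 3.42% of isotype and 16.6% of blockade cells, Tcf7 in 57.2% and 46.8%, and blood transcripts summed to 28.97 CPM in the isotype and 365 CPM in the blockade library, the reverse of the bulk libraries. Leaving mitochondrial and ribosomal protein UMIs out of the totals changes only the scaling, so it lowered every ratio in the kept cells by the same amount. The totals fell from 12390885 to 6853371 UMIs in the isotype and from 12399243 to 8043080 in the blockade library. The ratio of Cd28 then turned from 0.07 to -0.16.

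**Figure D5:**
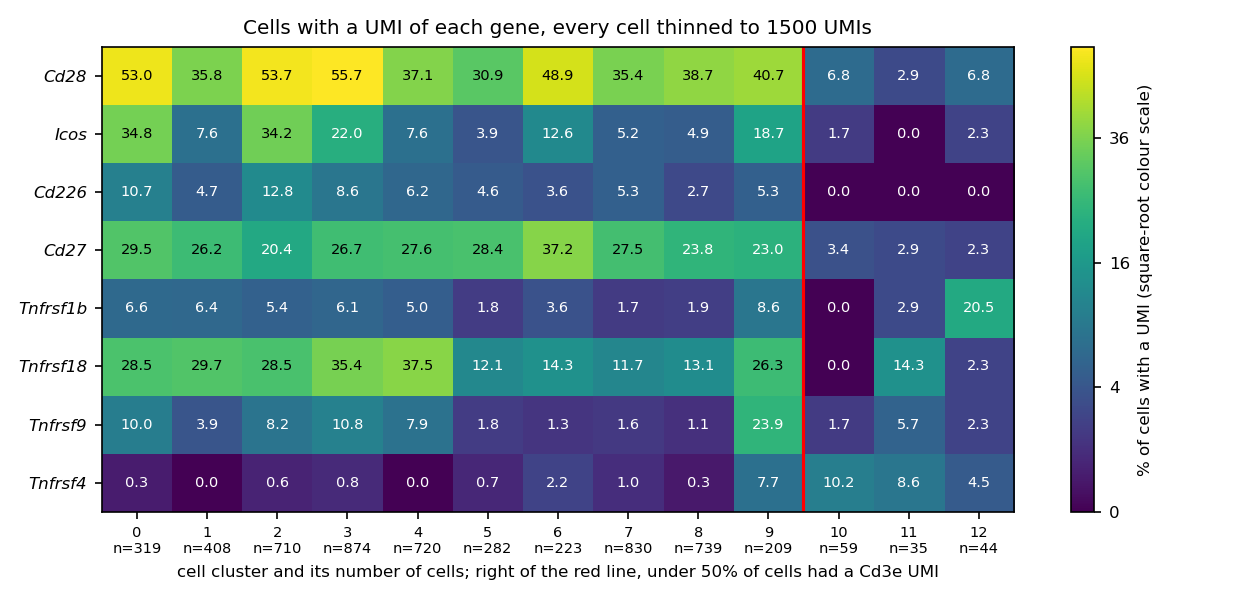
Share of cells with a UMI of each gene (number and colour, on a square-root colour scale) in the 13 clusters of both single-cell libraries, with every cell thinned to 1500 UMIs. Columns are clusters with their number of cells, and under 50% of cells had a Cd3e UMI in the 3 clusters to the right of the red line. Cd28 and Cd27 are found in every T cell cluster, Icos mostly in clusters 0, 2 and 3, and Tnfrsf9 most often in cluster 9.

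The T cell clusters are given by number and leading genes. Cd28 and Cd27 were spread over all of them, with thinned shares of 30.9% to 55.7% and 20.4% to 37.2%. The shares of Icos ran from 3.90% in cluster 5 (led by Acot2 and Mettl1) to 34.8% in cluster 0 (led by interferon-stimulated genes such as Ifit3b) and 34.2% in cluster 2 (led by haemoglobin genes, with Cxcr6). Cluster 2 held 34.0% of all Icos UMIs. Of its 710 cells, 588 came from the blockade library, whereas 276 of the 282 cells of cluster 5 came from the isotype library. A cluster mostly of 1 library may reflect that library. Tnfrsf18 was found in 26.3% to 37.5% of thinned cells in clusters 0 to 4 and 9, and in 11.7% to 14.3% in clusters 5 to 8. Clusters 5 to 7 hold 97.9%, 92.4% and 97.1% isotype cells and cluster 8 holds 78.3%.

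In clusters 1, 3 and 4, Tnfrsf18 lay close in both libraries. It was at 277 CPM (interval 235 to 324) in isotype and 252 CPM (224 to 283) in blockade cells of cluster 1, led by Gm19705 and Cd163l1. It was at 306 CPM (interval 274 to 341) in isotype and 343 CPM (317 to 371) in blockade cells of cluster 3, which is led by Klrg1, Ccl5 and Gzma. In cluster 4, led by Klra genes, it was at 322 CPM (287 to 360) and 329 CPM (304 to 355). Icos was at 168 CPM (145 to 194) and 182 CPM (163 to 202) in cluster 3, but at 27.6 CPM (18.2 to 40.2) and 60.2 CPM (49.9 to 72.0) in cluster 4. Tnfrsf9 in cluster 3 was at 72.7 CPM (57.7 to 90.5) and 126 CPM (111 to 143). Each of clusters 0 to 4 held more blockade than isotype cells. The intervals of Tnfrsf18 overlapped in clusters 1, 3 and 4, whereas those of Icos in cluster 4 and of Tnfrsf9 in cluster 3 did not. Among the other T cell clusters, levels by library are given here only for the cluster described next. The clusters shown may thus not stand for the rest. The part of cluster make-up in the Tnfrsf18 difference between the libraries was not tested.

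Cluster 9, led by Il3, Il2 and cell cycle genes such as Neil3 and Nusap1, held 209 cells and 29.1% of all Tnfrsf9 UMIs. Tnfrsf9 was found in 48.3% of its cells and in 23.9% after thinning, against 1.08% to 10.8% in the other T cell clusters. Its median of 6835 UMIs a cell was the highest of the T cell clusters. Tnfrsf9 was at 240 CPM (206 to 278) in its isotype and 368 CPM (330 to 409) in its blockade cells, and Tnfrsf4 at 14.7 CPM (7.32 to 26.2) and 122 CPM (101 to 147). Tnfrsf18 was at 128 CPM (104 to 156) and 241 CPM (211 to 275), so that in this cluster it differed between the libraries beyond counting error. This cluster also held 28.2% of all Tnfrsf4 UMIs.

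Tnfrsf4 was the member with the largest share of its UMIs outside the T cell clusters. The 3 clusters with little Cd3e made up 2.53% of cells and 12.5% of all UMIs but held 43.3% of Tnfrsf4 UMIs (192 of 443), against 10.3% for Tnfrsf1b, 7.69% for Tnfrsf9 and 1.25% or less for the other 5 genes. Cluster 10, 59 cells led by Crabp1, Cald1 and Sparc with a median of 28858 UMIs, held Tnfrsf4 at 65.9 CPM, in 50.8% of cells and in 10.2% after thinning. In that cluster Cd28 was at 9.11 CPM, Cd27 at 5.38, Tnfrsf18 at 3.73, Icos at 2.90 and Cd226 at 0.414 CPM. A Cd3e UMI was found in 32.2% and a Cd8a UMI in 28.8% of its cells. The source of the T cell transcripts in this cluster was not tested. Cluster 12, 44 cells led by Chil3 and C1q genes of which 42 came from the blockade library, held Tnfrsf1b in 43.2% of cells. In cluster 11, 35 cells led by Il4i1, Ccl22 and Cd209a, Tnfrsf4 was found in 17.1%. Within the T cell clusters Tnfrsf4 was found in 0 to 7.66% of thinned cells, with the highest share in cluster 9.

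The members were also counted together in single T cells thinned to 1500 UMIs. A cell held a UMI of 1.11 ± 0.953 of the 8 genes (SD over cells) in the isotype and 1.47 ± 1.07 in the blockade library. In the blockade library, Tnfrsf18 was found in 40.4% of 223 Tnfrsf9-positive cells (95% interval 33.9 to 47.1) and 29.7% of negative cells (27.8 to 31.7). Pdcd1 was found in 16.6% (12.0 to 22.1) and 7.35% (6.30 to 8.53), Havcr2 in 6.28% (3.47 to 10.3) and 1.14% (0.74 to 1.68), and Tcf7 in 12.1% (8.13 to 17.1) and 24.6% (22.8 to 26.4). Median UMIs were 3977 and 3783. The intervals of positive and negative cells did not overlap for any of these 4 genes in the blockade library. Those of Tnfrsf4 (1.86 to 7.52 against 0.284 to 0.956) also did not overlap. For Cd28, Icos, Cd27, Tnfrsf1b, Cd226, Mki67, Cd4 and Foxp3 the intervals overlapped. In the isotype library, with 113 Tnfrsf9-positive cells, Tnfrsf18 was found in 32.7% of positive (24.2 to 42.2) and 19.003% of negative cells (17.6 to 20.5), without overlap of the intervals. There the intervals overlapped for Pdcd1 (1.45 to 10.02 against 0.936 to 1.82), Havcr2 (0.215 to 6.25 against 0.0582 to 0.418) and Tcf7 (16.4 to 32.8 against 29.2 to 32.6). Tnfrsf18 was found in 57.1% of the 21 Tnfrsf4-positive cells (34.0 to 78.2) and 30.5% of negative cells (28.6 to 32.4), with medians of 5901 and 3789 UMIs. In the isotype library it was found in 58.3% of 24 Tnfrsf4-positive cells (36.6 to 77.9) and 19.2% of negative cells (17.8 to 20.7), where the positive cells had the lower median of 3152 against 3647 UMIs. Foxp3 was found in 2 of the 24 Tnfrsf4-positive and 0 of the 2878 negative isotype cells, without overlap of the intervals. Among blockade cells it was found in 1 of the 21 positive and 0 of the 2391 negative cells, where the intervals overlapped. Cd4 was found in 0 of the Tnfrsf4-positive cells of either library, and in 0.0695% and 0.0836% of negative cells.

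Across the bulk libraries, each member was set beside all genes by the mean of its Pearson correlations in the subset (14 libraries) and the treatment experiment (12 libraries), over 11898 genes. The groups differ in many genes, so these values largely describe shared differences between groups. Tnfrsf9 was most like Gzmb, which encodes granzyme B (0.94), and Pfkp (0.92), and Tnfrsf4 was most like Magohb (0.94) and Entpd1, which encodes CD39 (0.89). Icos was most like Itgal, a chain of LFA-1 (0.91), and Atxn1 (0.89), and Cd226 was most like Crot (0.90) and Anxa6 (0.88). For Tnfrsf1b these were Dad1 (0.90) and Pik3cg (0.86), for Tnfrsf18 Parvg (0.86) and Fkbp8 (0.85), for Cd27 Rnaset2a and Ikzf2 (0.78 and 0.77), and for Cd28 Ctla2a and B2m (0.72 for each). Among the members themselves, Tnfrsf9 and Tnfrsf4 correlated at 0.94 in the treatment and 0.33 in the subset experiment, and Icos and Cd226 at 0.73 and 0.91.

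The other genes of these pathways were counted in lists. Over all genes, 15% were called higher and 14.8% lower in DP than in DN cells after isotype, and 14.4% and 12.5% after blockade. Of 12 measured ligand genes, 8 were called higher and 1 lower in DP than in DN cells after isotype, with a median log2 difference of 0.95 against a median of all genes within 0.05 of 0. Cd80 (3.65 ± 0.43, edgeR adjusted p = 5.55e-05), a ligand of CD28, and Tnfsf4 (2.78 ± 0.44, adjusted p = 0.000451), which encodes OX40L, were higher, and Tnfsf8, the CD30 ligand, was lower (-3.65 ± 0.44, adjusted p = 6.13e-05). After blockade 5 of 12 were higher and 2 lower, among them Cd70, the ligand of CD27 (4.53 ± 0.68, adjusted p = 0.000467). Of 18 measured other TNF receptor genes, 1 was higher and 6 were lower in DP cells after isotype (median -0.56), led by Tnfrsf26 (-3.10 ± 0.27, adjusted p = 6.20e-06), and after blockade 1 was higher and 8 were lower. Of 22 measured CD28 signalling genes, 3 were higher and 9 lower after isotype (median -0.40) and 3 higher and 5 lower after blockade (median -0.11), with Pik3r5 (-1.23 ± 0.14) and Fyn (-1.03 ± 0.17) lower after isotype. Of 23 adaptor and NF-kB genes, 5 were higher and 6 lower after isotype (median -0.09), and 4 higher and 3 lower after blockade (median 0.0090). After isotype Nfkb2 was higher (0.59 ± 0.10, adjusted p = 0.00084) and Map3k14, which encodes the kinase NIK, was lower (-1.04 ± 0.16, adjusted p = 0.000458). Of 6 measured genes listed with CD226, not all of which are its partners, 3 were higher and 0 lower in both conditions. After isotype these included Tigit (1.10 ± 0.22, edgeR adjusted p = 0.00206). Blockade against isotype in DN cells, where 0.519% of all genes were called higher and 0.598% lower, called 1 ligand gene, Cd80, at 4.10 against 0.733 CPM (2.48 ± 0.43, adjusted p = 0.0249), and 1 gene of the adaptor list, Bcl2l1, which encodes the survival protein BCL-XL (0.56 ± 0.11, adjusted p = 0.0345). In DP cells it called 0 genes of these 5 lists. Cd80 is also carried by myeloid cells. Of 12 myeloid markers, 6 were called higher and 1 lower in DP than in DN cells after isotype, and 2 were called higher after blockade in DN cells, and their part in the Cd80 differences was not tested.

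Fewer genes of these lists were called between the subsets, as was so for all genes (1.91% to 6.42% against 29.9% and 27%). In effector-like against naive-like cells, 2 of 12 measured ligand genes were higher and 1 was lower, against 2.62% and 3.79% of all genes, and 1 of 23 adaptor and NF-kB genes was called in each direction. Tnf, the ligand of TNFR2, differed by 1.303 (edgeR adjusted p = 0.00999) and Tnfsf14, the ligand LIGHT, by 1.39 (adjusted p = 0.0104), while Tnfsf8 differed by -6.04 (adjusted p = 0.000198). Tnf and Tnfsf14 were also higher in memory-like than in naive-like cells, by 1.13 (adjusted p = 0.0159) and 1.60 (adjusted p = 0.00321). Bcl2l1 rose against naive-like cells in both, by 2.03 in effector-like (adjusted p = 5.28e-05) and 1.36 in memory-like cells (adjusted p = 0.00212). Ikbkb, a kinase of the NF-kB pathway, was the 1 gene of that list called lower in both. Between effector-like and memory-like cells, 3 genes of the 5 lists were called higher and 3 lower, against 0.484% and 1.43% of all genes. Pik3r1, a subunit of PI3 kinase (0.65, adjusted p = 0.0353), Ngfr, the nerve growth factor receptor (4.98, adjusted p = 0.0335), and Itgb2, a chain of LFA-1 (0.65, adjusted p = 0.0167), were higher. Traf1, an adaptor that binds 4-1BB, was lower (-0.97, adjusted p = 0.0262), as were Tnfsf8 (-5.06, adjusted p = 0.00255) and Crtam (-1.49, adjusted p = 0.0182), which recognises a nectin-like ligand.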

How the data were processed

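Bulk libraries of about 2000 sorted cells were made with an adapted SMART-Seq2 protocol, per the labels' protocols. TopHat, RSEM and DESeq with mm9 (bulk) and Cell Ranger 1.3 with mm10 (10x single cells) are named in the submitters' processing notes, without roles. The authors deposited expected counts (estimated counts per gene, 35.3% and 40.6% of nonzero values not whole), which were rounded, and a normalized signal of unnamed scale. Within a gene that deposited signal was proportional to the counts with 1 factor per library for 100% of 4259 and 6805 genes checked, within 1%, and its ratio to the counts fell with transcript length (slope -0.92 and -0.91 on log2 scales). The deposited single-cell table holds counts (UMI).

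The members and gene lists were chosen with earlier results of these data known. Each bulk table was fitted whole in R 4.3.3 with edgeR 4.0.16, using its quasi-likelihood test on group means without a block after TMM scaling and the filterByExpr filter, on 12388 and 12710 genes, with Benjamini-Hochberg adjustment over all of them and a threshold of 0.05. CPM use TMM effective library sizes. Rn45s, a ribosomal RNA precursor, held 10.7 to 20.7% of a library. All members are named, with at most 3 called genes per list and comparison by smallest p and the 2 genes most alike. On simulated data with 200 altered genes, 2-fold changes were recovered for 7.5 to 21.5% in the subset table (12388 genes) and 44.5 to 51% in the treatment table (12710 genes), and 4-fold changes for 47.5 to 53.5% and 76 to 84%. By title number, deviations correlated at 0.122 to 0.383 in 3 of 3 pairs of DN isotype and DN blockade libraries. DN isotype and DN blockade libraries of unlike title number were not compared, and the labels do not state pairs. Whether the title numbers mark pairs was thus not settled. Library names give DN and DP libraries of a treatment shared numbers. Pairs matched by these numbers correlated at -0.006 to 0.326 after isotype and 0.061 to 0.152 after blockade. Matched by title number instead, where most library-name numbers differ, they correlated at -0.334 to -0.006 and -0.059 to 0.042. The main fit has no block because the labels do not state that numbers mark an animal, and a shared mouse remains possible. By title number, no other groups correlated over 0.1. Alternatives used DESeq2 1.42.0, RLE factors, no filter, no Rn45s, only the groups compared, replicate blocks and left-out libraries.

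Of 5471 single cells, 5452 passed a minimum of 500 genes and a maximum of 10% mitochondrial UMIs and were clustered with scanpy 1.11.5 (2000 variable genes, 30 components, 15 neighbours, Leiden resolution 1.0). Barcode suffixes were assigned to libraries by the sample numbers in the labels, which is an assumption. Intervals are exact Poisson for CPM and Clopper-Pearson for shares, at 95%. Promoter sequences and gene positions are from RefSeq, build GRCm38.p6; the bulk data were made on another build and give no coordinates. Some genes of the lists are not reported here.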

Additional observations from a re-analysis of the deposited data

Results flagged for a closer look

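A pair of member values stood far from the rest of their group. Tnfrsf9 in naive-like replicate 4 was at 121.7 CPM, where the next highest of the 6 libraries held 25.5, so that this gap took 0.862 of the group's whole range (Dixon's limit 0.625). Tnfrsf4 in memory-like replicate 1 was at 13.24 CPM, where the next of the 5 libraries held 5.33, a gap of 0.713 of the range (limit 0.71). Chance flags about 1 in 20 groups, and 16 sets of 1 gene in 1 group were looked at. Without that naive-like library the differences of Tnfrsf9 from naive-like cells were 3.79 in memory-like and 3.72 in effector-like cells. Without that memory-like library the difference of Tnfrsf4 between memory-like and naive-like cells was 0.51 in place of 1.08.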

How the results depend on the processing

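Of the 18 calls of a member in the bulk comparisons, 11 held under every alternative run; over 260 alternatives the call changed in 31 and the direction in 0. Among the results that were not called, 12 of 692 alternatives gave a call and 34 turned the sign. In effector-like against memory-like cells, DESeq2, RLE factors, the fit without Rn45s and the fit without the 3 libraries that stood apart (chosen after seeing the data) called 2 members. The replicate block by title number called 0 there, 2 against naive-like cells and 1 between memory-like and naive-like cells. In DN cells, blockade called 0 with only the groups compared, with the replicate block and with the block in DN libraries alone (chosen after seeing the data). DESeq2 called 1 member, Tnfrsf4, for the difference between DP and DN blockade effects. All-gene counts of these alternative fits are not given here, so these member counts cannot be set against a share of all genes. The title numbers did not pair the other groups, so calls lost there say only that the numbers were used. With each library left out in turn, members called ranged from 1 to 2, 2 to 4 and 1 to 3 in the subset comparisons (effector-like against memory-like, effector-like against naive-like, memory-like against naive-like), from 0 to 1 for blockade in DN cells, and from 5 to 6 and 3 to 4 for DP against DN cells after isotype and blockade. In the same order, all genes called ranged from 105 to 215, 484 to 1068, 340 to 815, 22 to 229, 2880 to 4041 and 2386 to 3143.

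Uncalled differences that turned sign with a library left out ranged, in effector-like against memory-like cells, from -0.21 to 0.77 (Icos), -0.36 to 0.20 (Tnfrsf9) and -0.069 to 0.22 (Tnfrsf1b); against naive-like cells from -0.25 to 0.13 (Cd28) and -0.045 to 0.25 (Tnfrsf1b); and between memory-like and naive-like cells from -0.060 to 0.14 (Tnfrsf1b). With blockade in DN cells they ranged from -0.012 to 0.35 (Cd28), -0.30 to 0.021 (Cd27) and -0.16 to 0.049 (Tnfrsf18), with blockade in DP cells from -0.021 to 0.38 (Icos), -0.072 to 0.27 (Tnfrsf4) and -0.16 to 0.12 (Tnfrsf18), from -0.11 to 0.25 (Cd28) for DP against DN cells after blockade, and from -0.11 to 0.15 (Tnfrsf18) for the difference of blockade effects. With the title block, Tnfrsf9 (0.14) and Tnfrsf4 (-0.16) turned in effector-like against memory-like cells. For that difference of effects Tnfrsf18 turned to 0.0019 with DESeq2, 0.0019 with RLE factors, 0.0076 without a filter and 0.00085 with the library-name block.

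In single cells, leaving mitochondrial and ribosomal protein UMIs out of the total gave log2 ratios of -0.16 for Cd28, 1.04 for Icos, -0.49 for Cd27, 1.10 for Tnfrsf9, 0.47 for Tnfrsf18 and 0.14 for Cd226. T cell clusters alone (chosen after seeing the data) gave 0.20 for Cd28, -0.13 for Cd27 and 0.83 for Tnfrsf18. Without cluster 9 as well (also chosen after seeing the data) they gave 0.21 for Cd28, -0.092 for Cd27, 1.59 for Tnfrsf9, 0.18 for Tnfrsf4 and 0.82 for Tnfrsf18. Cells with Cd8a or Cd8b1 and without Cd4 or Foxp3 gave 1.58 for Tnfrsf9. Thinning gave differences in the percent of cells of 1.31 (Cd28), 12.3 (Icos), 5.09 (Tnfrsf9), 0.318 (Tnfrsf4), 10.5 (Tnfrsf18), 2.92 (Tnfrsf1b) and 3.01 (Cd226) percentage points. Leaving out mitochondrial and ribosomal protein UMIs shifted every ratio by the same amount, since only the totals changed. The cause of the other changes was not tested. Depth limits Tnfrsf4, whose values rest on 136 and 307 UMIs in all cells and 74 and 177 in T cell clusters.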
